A study of Mus musculus with 11 samples.

Results

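The microRNAs (miRNAs) miR-151, miR-140, miR-28a and miR-186 each come from a hairpin that lies in an intron of a protein-coding gene with no other annotated miRNA in that intron. Their mature products were compared between control and *Mov10* knockdown spermatogonial progenitor cells (SPCs). The members are all mature miRNAs named miR-151, miR-140, miR-28 or miR-28a, or miR-186, from either arm of the hairpin, that were listed in both small RNA tables. There were 8 of them among 1096 mature miRNAs, a 5p and a 3p product for each of the 4 loci. The related names miR-28b and miR-28c lay outside the rule, and miR-28c was counted with 7 control and 2 knockdown reads.

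An intronic miRNA is often transcribed as a piece of its host gene's primary transcript. Its hairpin is usually cut out of the intron by the nuclear Microprocessor complex of DROSHA and DGCR8, although some intronic hairpins, called mirtrons, are released by splicing instead. The hairpin is exported and cut again by DICER into a short duplex, of which an Argonaute protein usually keeps one strand and discards the other, so that the 5p and 3p products of a hairpin can accumulate at very different levels. Both products arise from a single transcript, and their ratio within a library can be compared without knowing how deeply the library was sequenced.

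SPCs are Thy1-positive germ cells from testes of mouse pups, cultured on a layer of STO feeder cells, a fibroblast line of mouse embryos. The labels give the strain as C57BL/6 and the age as postnatal day 6, while the methods name the mice B6;129S-Gt(Rosa)26Sor/J and give an age range that begins on that day. Control cells (label Mov10 Vector) carried the empty lentiviral pLKO.1 vector shVector. Knockdown cells (label Mov10 knockdown) carried the same vector with an shRNA against *Mov10*, so that both groups were transduced. The methods name shMov10-832 for the RNA-seq libraries and do not say which shRNA the small RNA library had. MOV10 is an RNA helicase found with Argonaute proteins. Each group had 1 small RNA library. The methods speak of triplicate samples and do not say whether these were pooled. No value below therefore has a replicate error, the tests compare the 2 libraries and not the 2 conditions, and intervals and p-values cover counting error only. Small RNA libraries do not read whole mRNAs, so the level of *Mov10* itself was not looked at.

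Levels are given as reads and as deposited TPM, which in these tables is the number of reads per 1000000 reads of a library's own total with no correction for length. This total was 10518277 reads for control and 3194363 reads for knockdown SPCs, of which 9628835 and 2794593 lay on mature miRNAs. Each read counted for 0.0951 TPM in the control and for 0.313 TPM in the knockdown. The floor of detection was set at 3 reads, that is, 0.285 and 0.939 TPM. Fold changes are log2 of the knockdown's TPM + 0.1 over the control's TPM + 0.1. A miRNA is called reduced or raised when it differs over 1.5-fold and exceeds 1.5 TPM in the higher library. The 1.5-fold and 1.5 TPM limits are those the study used, and applying the minimum to the higher library was chosen here. TPM cannot show a loss shared by the RNAs behind a library's total, and a loss of cells of some type and less RNA per cell cannot be told apart.

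The 4 hairpins were placed on GRCm38 with GENCODE vM21. Mir151 lies on the minus strand at chr15:73254815-73254882, in intron 22 of the 31 introns of Ptk2-201, a transcript of the focal adhesion kinase gene *Ptk2*. Mir140 lies on the plus strand at chr8:107551244-107551313, in intron 16 of 23 of Wwp2-201, from *Wwp2*, which encodes an E3 ubiquitin ligase of the HECT class. Mir28a lies on the plus strand at chr16:24827855-24827940, in intron 8 of 12 of Lpp-201, from *Lpp*, which encodes a LIM domain protein of focal adhesions. Mir186 lies on the plus strand at chr3:157544279-157544349, in intron 8 of 9 of Zranb2-201, from *Zranb2*, which encodes a zinc finger protein that binds RNA and acts in splicing. All 4 hairpins lie on the strand of their host.

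The introns differ widely in size. The intron around Mir186 measures 1719 bp and that around Mir140 measures 2141 bp, while the intron around Mir151 spans 14556 bp and that around Mir28a 82814 bp. Mir186 lies 614 bp and Mir140 963 bp before the next exon, compared with 12337 bp for Mir151 and 17150 bp for Mir28a. For Mir140 alone among the 4, another annotated transcript of the host, the retained-intron transcript Wwp2-206, covers the hairpin with an exon. No other miRNA was annotated in any of the 4 introns or elsewhere in the 4 host transcripts.

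Mir151 was the most abundant of the 4 loci in both libraries, and both of its arms were lower in the knockdown. miR-151-3p had 88374 reads in control and 18278 in knockdown SPCs, or 8402 and 5722 TPM, which ranked it 28 and 31 among the 1096 miRNAs. Its log2 fold change was -0.55 (95% exact confidence interval -0.58 to -0.53), a level 0.681 times that of the control. miR-151-5p had 13738 and 2908 reads, or 1306 and 910 TPM, and its log2 fold change was -0.52 (-0.58 to -0.46; adjusted p = 3.12e-74, exact binomial test). The intervals of the 2 arms overlapped, and both arms stayed inside the 1.5-fold threshold. Relative to the median of the 607 miRNAs above 1.5 TPM, which was -0.37, miR-151-3p lay at -0.19 and miR-151-5p at -0.16.

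The arms of Mir140 changed in opposite directions in TPM. miR-140-3p, the leading arm, had 17308 control and 3980 knockdown reads, or 1646 and 1246 TPM, and fell by 0.40 on the log2 scale (interval -0.45 to -0.35; adjusted p = 1.91e-58, exact binomial test). miR-140-5p, known for its abundance in cartilage, had 568 and 245 reads, or 54.0 and 76.7 TPM, and rose by 0.51 (0.28 to 0.72; adjusted p = 3.15e-05, exact binomial test). The decrease of miR-140-3p was close to the median of the 607 miRNAs above 1.5 TPM, from which it differed by -0.04, whereas miR-140-5p lay 0.87 above it. When both libraries were divided by a common total, which compares raw reads, the value of miR-140-5p turned to -1.21. Its read ratio of 0.431 was still higher than the 0.230 of miR-140-3p, because a change of total moves both arms alike.

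The arms of Mir28a had nearly equal reads in the control and not in the knockdown. miR-28a-5p had 2302 control and 680 knockdown reads, or 219 and 213 TPM, and its log2 fold change of -0.04 was not separated from counting error (interval -0.17 to 0.08; adjusted p = 0.877, exact binomial test), although it was with other scalings, given below. miR-28a-3p had 2196 and 942 reads, or 209 and 295 TPM, and rose by 0.50 (0.39 to 0.61; adjusted p = 3.26e-17, exact binomial test), which turned to -1.22 with a common total. In the control, miR-28a-5p made up 51.2% of the reads of the pair (95% Wilson interval 49.7 to 52.6%), so that the order of the arms could not be told at this depth. In the knockdown, miR-28a-3p led with 58.1% (55.7 to 60.5%).

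Mir186 gave almost only its 5p product, and this product rose. miR-186-5p had 19527 control and 8205 knockdown reads, or 1856 and 2569 TPM, and moved from rank 60 to rank 46. Its log2 fold change was 0.47 (0.43 to 0.51; adjusted p = 3.78e-127, exact binomial test), a level 1.38 times that of the control, and turned to -1.25 with a common total. miR-186-3p had 21 and 7 reads, or 2.00 and 2.19 TPM. Its log2 fold change was 0.13 with an interval from -1.34 to 1.42, which holds a 2-fold decrease as well as a 2-fold increase, so that a change was not detectable at this depth.

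**Figure D1:**
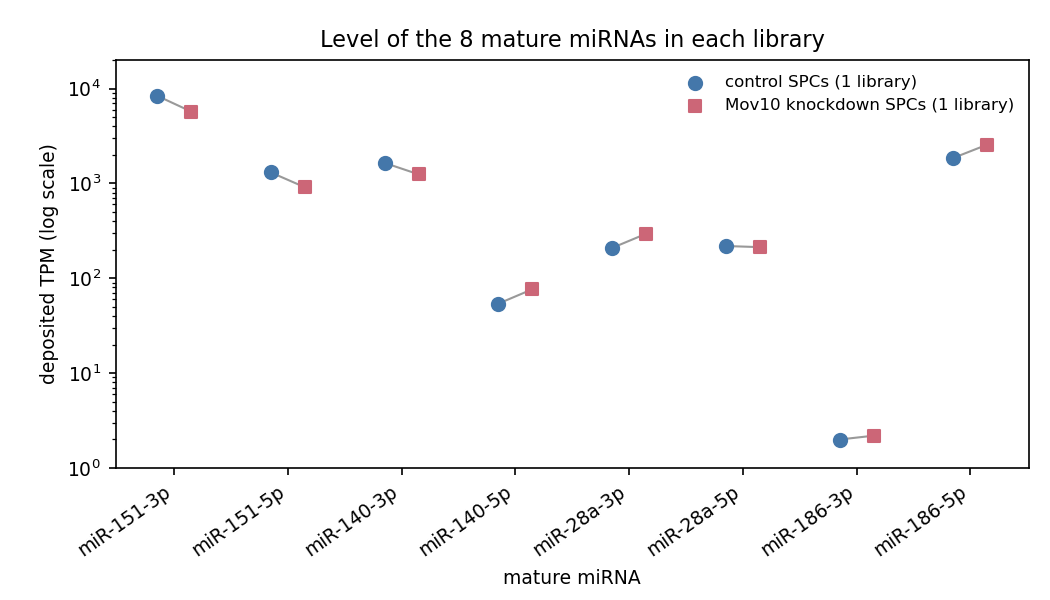
Deposited TPM (log axis) of the 8 mature miRNAs in the control library (circles) and the Mov10 knockdown library (squares), 1 library per group, with a line joining the 2 values of each miRNA. The levels run from 8402 TPM for miR-151-3p to 2.00 TPM for miR-186-3p in the control, and the 2 libraries differ far less than the members do.

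Both libraries had the same order of levels but for a pair. In the control, miR-151-3p was followed by miR-186-5p, miR-140-3p, miR-151-5p, miR-28a-5p, miR-28a-3p, miR-140-5p and miR-186-3p, and in the knockdown the 2 arms of Mir28a changed places. Of the neighbours in this order, miR-28a-5p and miR-28a-3p in the control were the only pair whose interval held an equal share. miR-186-5p and miR-140-3p were close in the control, at 1.13 reads of the first for each read of the second, and apart in the knockdown, at 2.06. Reads of different miRNAs also depend on how well each sequence is ligated and amplified, so that this order is one of reads.

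All 8 members exceeded 1.5 TPM in the higher library, and 0 were reduced and 0 were raised over 1.5-fold. Among all 607 miRNAs above this minimum, 41.5% were reduced and 15.8% were raised. By the exact binomial test, adjusted over the 1096 miRNAs, 3 members were lower in the knockdown (miR-151-3p, miR-151-5p and miR-140-3p) and 3 were higher (miR-140-5p, miR-28a-3p and miR-186-5p). Over all 1096 miRNAs, 21.4% were lower and 10.7% were higher by this test, and of the 607 above the minimum 38.7% and 18.9%. The median log2 fold change was 0.04 over the 8 members and -0.37 over the 607 miRNAs. With 4 loci, 2 arms each and many reads behind most of them, these counts describe the members and were not tested as a list.

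The calls of the members depended on the scaling. Scaling by the median ratio (over miRNAs past 1.5 TPM in each of the 2 libraries) or by TMM factors moved the median of all miRNAs up by 0.25, and miR-140-5p, miR-28a-3p and miR-186-5p then passed 1.5-fold, with log2 fold changes of 0.76, 0.75 and 0.72 for the median ratio. miR-28a-5p was then also higher by the exact binomial test, at 0.21 with the median ratio (adjusted p = 0.0034) and 0.18 with TMM (adjusted p = 0.018). Of the miRNAs above the minimum, 191 of 607 were then reduced and 144 raised with the median ratio. With TMM 201 of 616 were reduced and 145 raised, against 252 and 96 of 607 with the deposited TPM. Over the 1096 miRNAs, the exact binomial test gave 183 lower and 169 higher with the median ratio and 187 and 159 with TMM. It gave 607 and 10 with a common total, against 235 and 117 with the deposited TPM. A common total moved the median by -1.71. All 8 members were then reduced over 1.5-fold, with read ratios from 0.207 for miR-151-3p to 0.431 for miR-140-5p. So were 561 of the 581 miRNAs above the minimum with this total, while 10 were raised. The ratio of the 2 library totals was 0.304.

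**Figure D2:**
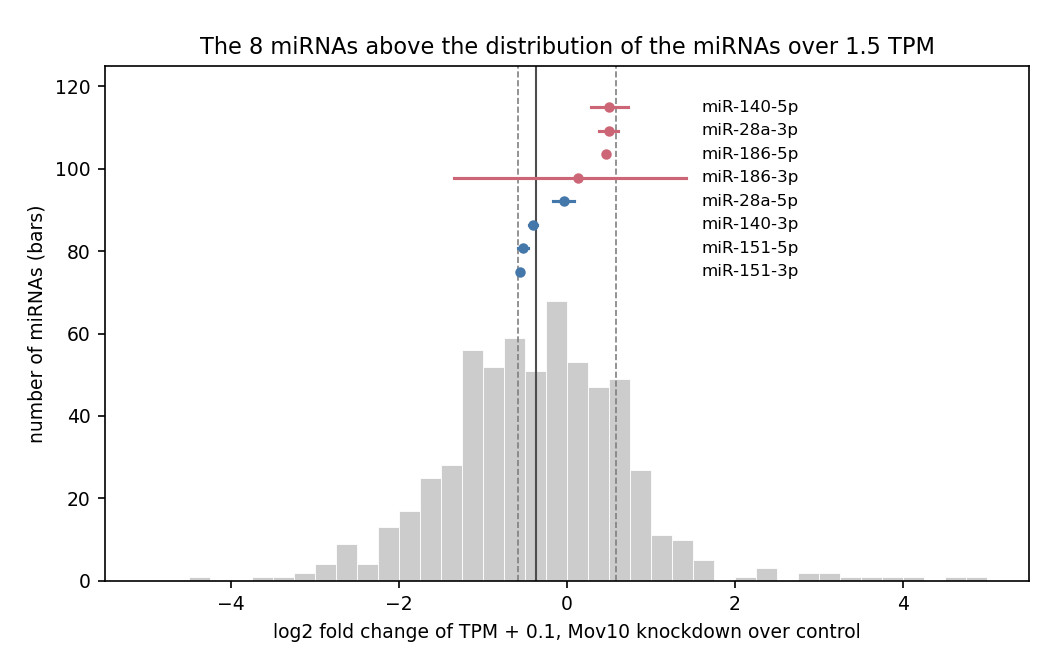
Log2 fold change of TPM + 0.1 (Mov10 knockdown over control) for the 607 miRNAs above 1.5 TPM (grey bars, number of miRNAs per bin of the log2 axis), with the 8 members above them as points with 95% exact intervals of counting error (red above 0, blue below 0; their height carries no value). The solid line marks the median of -0.37 and the dashed lines 1.5-fold; the 8 points lie between the dashed lines.

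Summed over both arms, Mir151 had 102112 control and 21186 knockdown reads, or 9708 and 6632 TPM, and a log2 fold change of -0.55 (-0.57 to -0.53). Mir140 had 17876 and 4225 reads, or 1700 and 1323 TPM, and a value of -0.36 (-0.41 to -0.31). Mir28a had 4498 and 1622 reads, or 428 and 508 TPM, and a value of 0.25 (0.17 to 0.33). Mir186 had 19548 and 8212 reads, or 1858 and 2571 TPM, and a value of 0.47 (0.43 to 0.51). Thus 2 loci lay below the control and 2 above it in TPM, and with a common total the last 2 turned to -1.47 and -1.25. The loci with the 2 shortest introns, Mir186 and Mir140, had values of opposite sign in TPM, as did Mir151 and Mir28a in the 2 longest. The 4 loci together made up 1.496% of all miRNA reads in the control (95% Wilson interval 1.488 to 1.504%) and 1.261% in the knockdown (1.248 to 1.274%).

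The ratio of a pair of loci within a library needs no library total, and all 6 pairs differed between the libraries by Fisher's exact test with adjustment over the 6 pairs. The widest shift was that of Mir151 against Mir186. For each read of Mir186, control SPCs had 5.22 reads of Mir151 and knockdown SPCs 2.58, which is a 2.02-fold change of the ratio (log2 -1.02, 95% interval -1.06 to -0.97). Mir140 and Mir186, nearly level in the control with a ratio of 0.914, came to 0.514 in the knockdown (log2 change -0.83, -0.89 to -0.77; adjusted p = 1.13e-160, Fisher's exact test). Mir151 against Mir28a went from 22.7 to 13.1, and Mir140 against Mir28a from 3.97 to 2.60.

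The smallest shifts were within the pairs that lay on the same side. Mir151 against Mir140 went from 5.71 to 5.01 (log2 change -0.19, -0.24 to -0.14; adjusted p = 5.95e-12, Fisher's exact test), and Mir28a against Mir186 from 0.230 to 0.198 (-0.22, -0.31 to -0.13; adjusted p = 1.41e-06, Fisher's exact test). The order of relative change of the sums was therefore Mir151, Mir140, Mir28a and Mir186, from the lowest to the highest, at every scaling. The place of Mir28a depended on the arm. When miR-28a-3p, the arm with more reads in the knockdown, was set against miR-186-5p, a choice made after the data were seen, the ratio went from 0.112 in control to 0.115 in knockdown SPCs (log2 change 0.03, -0.09 to 0.15; adjusted p = 0.621, Fisher's exact test). Among the reads of the 4 loci, the share of Mir151 fell from 70.9% (70.7 to 71.1%) to 60.1% (59.6 to 60.6%), and that of Mir186 rose from 13.6% (13.4 to 13.7%) to 23.3% (22.9 to 23.7%).

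The share of the 3p arm was then compared for each hairpin. For Mir151 it was 86.5% of the reads of both arms in the control (95% Wilson interval 86.3 to 86.8%) and 86.3% in the knockdown (85.8 to 86.7%). The difference of -0.27 percentage points had a 95% Newcombe interval from -0.79 to 0.23 and was not separated from counting error (adjusted p = 0.536, Fisher's exact test). For Mir186 the 3p arm held 0.107% (0.070 to 0.164%) and 0.085% (0.041 to 0.176%), a difference of -0.022 points (-0.094 to 0.076; adjusted p = 0.920, Fisher's exact test). In the control there were 930 reads of miR-186-5p for each read of miR-186-3p.

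For Mir140 and Mir28a the share changed. The 3p share of Mir140 fell from 96.8% (96.6 to 97.1%) to 94.2% (93.5 to 94.9%), a difference of -2.62 points (-3.41 to -1.90; adjusted p = 1.69e-13, Fisher's exact test). The 5p arm thereby went from 3.18% to 5.80% of the hairpin's reads, and the reads of miR-140-3p for each read of miR-140-5p went from 30.5 to 16.2. The 3p share of Mir28a rose from 48.8% (47.4 to 50.3%) to 58.1% (55.7 to 60.5%), a difference of 9.25 points (6.43 to 12.0; adjusted p = 1.57e-09, Fisher's exact test). The shifts went in opposite directions, toward the 5p arm for Mir140 and toward the 3p arm for Mir28a, that is, toward the arm with fewer reads in the control, although the arms of Mir28a could not be told apart there.

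**Figure D3:**
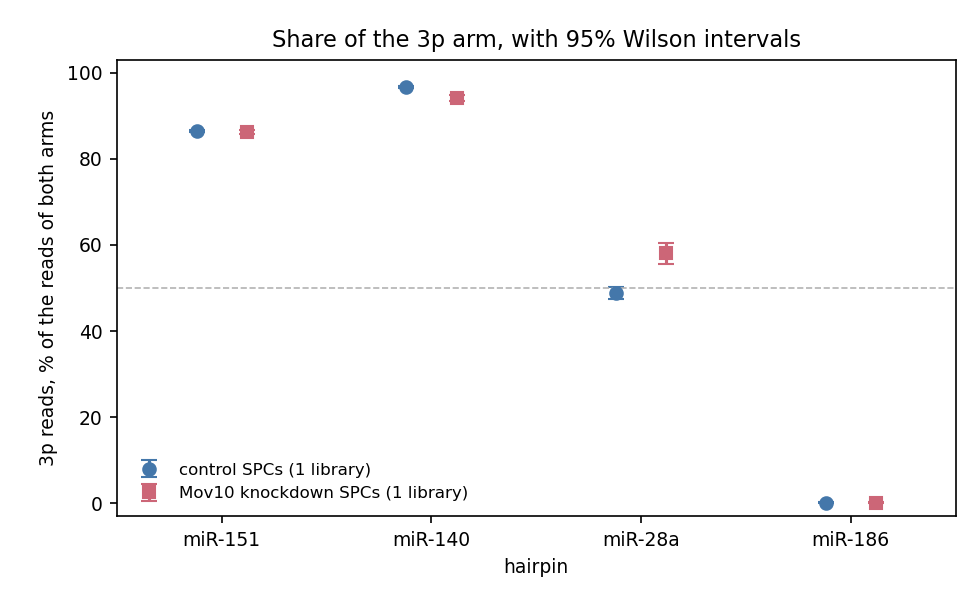
Share of 3p reads among the reads of both arms (percent, 0 to 100) for the 4 hairpins in the control library (circles) and the Mov10 knockdown library (squares), with 95% Wilson intervals of counting error; the dashed line marks equal arms. Mir28a moved from 48.8% to 58.1% and Mir140 from 96.8% to 94.2%, while the points of Mir151 and Mir186 nearly coincide.

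Arm shares were tested for 206 hairpin names with a 5p and a 3p product and at least 20 reads in each library. Of these, 27.2% changed (56 names, 27 toward the 3p arm and 29 toward the 5p arm), beside 2 of the 4 loci. The median shift in either direction was 1.12 percentage points over the 206 names. By this measure Mir28a ranked 26, Mir140 ranked 69, Mir151 ranked 144 and Mir186 ranked 192. On the log2 odds scale, which gives more weight to shares near 0% or 100%, the shift was -0.91 for Mir140 and 0.54 for Mir28a, against a median size of 0.56. Among 74 names for which both arms passed the exact binomial test, 9 had arms that moved in opposite directions in TPM, and 0 of 173 did with a common total. Besides miR-140 these were miR-1843a, miR-214, miR-221, miR-27b, miR-322, miR-335, miR-345 and miR-362, which were picked out after their values were seen. Of the 9 names, 6 also had both arms called and opposite with scaling by miRNA reads. With the median ratio and with TMM this held for 5 of them, and miR-140 was included each time.

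The mature sequences are shown for the arms whose shares moved and for Mir186, whose 5p arm was the most abundant of the members that rose. They come from RefSeq (GRCm38.p6), 5′ to 3′, where 5 of the 8 members matched, and capitals mark the seed, bases 2 to 8, which pairs with target mRNAs. The other members are miR-151-3p, miR-151-5p and miR-140-5p.
miR-140-3p: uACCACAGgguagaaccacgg
miR-28a-5p: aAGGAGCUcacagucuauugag
miR-28a-3p: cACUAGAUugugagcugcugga
miR-186-5p: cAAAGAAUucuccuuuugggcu
miR-186-3p: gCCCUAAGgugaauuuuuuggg
The 5 seeds differ from each other, and the targets of these arms were not looked at. The 5 arms lie at chr8:107551288-107551308 (miR-140-3p), chr16:24827868-24827889 and chr16:24827908-24827929 (miR-28a-5p and miR-28a-3p) and chr3:157544285-157544306 and chr3:157544324-157544345 (miR-186-5p and miR-186-3p), all on the plus strand.

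In the tables, 1 other miRNA had the seed of a member with a known sequence. miR-708-5p, from a hairpin in an intron of *Tenm4* on chromosome 7, has the seed AGGAGCU of miR-28a-5p, and the 2 sequences share their first 8 bases. The 3p arms of the 2 hairpins also share a run of 8 bases, UGUGAGCU, outside the seed. The pair is shown for its sequence likeness to the arms of Mir28a.
miR-708-5p: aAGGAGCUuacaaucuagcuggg
miR-708-3p: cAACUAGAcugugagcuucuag
miR-708-5p had 372 control and 102 knockdown reads, with a log2 fold change of -0.15 (-0.48 to 0.17), and miR-708-3p had 1638 and 451 reads, with a value of -0.14 (-0.30 to 0.01). Neither passed the exact binomial test. The 3p share of Mir708 was 81.5% (79.7 to 83.1%) in the control and 81.6% (78.1 to 84.6%) in the knockdown, a difference of 0.063 points with an interval from -3.75 to 3.55, against the 9.25 points of Mir28a. A difference between the 2 hairpins was not tested directly.

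The leading arm of each locus, taken as the arm with more control reads, was then set beside the 2 miRNAs nearest to it in level over both libraries, by the distance in log2(TPM + 0.1). Next to miR-151-3p stood miR-465b-5p, at a distance of 0.23, and miR-183-5p, at 0.43. Next to miR-140-3p stood miR-192-5p (0.13) and miR-30e-3p (0.15), and next to miR-28a-5p stood miR-106b-5p (0.08) and miR-425-5p (0.13). For miR-28a-3p, which led in the knockdown and was added after the values were seen, they were let-7d-3p (0.31) and miR-15a-5p (0.32). Next to miR-186-5p stood miR-199a-5p (0.23) and miR-199b-3p (0.29), with 2102 and 2121 TPM in the control and 2333 and 2984 TPM in the knockdown. These miRNAs are near in 2 values only, which says nothing of shared control.

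Other miRNAs that lie in introns of protein-coding hosts served as a wider view, with 38 names chosen for being known as such. Of their 45 hairpins, 40 lay in a protein-coding intron by the annotation. The 5 others were those of miR-671, in an exon of *Chpf2*, of miR-7a from Mir7-2, and of miR-9 from Mir9-1, Mir9-2 and Mir9-3. Among the 40, Mir330 and Mir126a were also overlapped by an exon of their hosts, *Eml2* and *Egfl7*. The tables held 74 mature miRNAs of 37 of these names, and 60 exceeded 1.5 TPM. The mature miRNAs of miR-671, miR-7a and miR-9 were kept in these counts. Of the 60, 20 were reduced over 1.5-fold, 5 were raised and 35 changed less, beside 41.5% reduced and 15.8% raised of the 607 miRNAs above this minimum, and the median log2 fold change was -0.20, beside -0.37 over all 607 miRNAs and 0.04 over the 8 members. By the exact binomial test 25 of the 60 were lower and 11 were higher, beside 38.7% and 18.9% of the 607. The most abundant was miR-26a-5p, with 22517 TPM in the control and 15088 TPM in the knockdown (log2 -0.58, -0.59 to -0.56), close to the value of miR-151-3p. Its hairpins Mir26a-1 and Mir26a-2 lie in different hosts, *Ctdspl* and *Ctdsp2*, so that its value is not that of a single intron. The names miR-103, miR-128 and miR-218 likewise had hairpins in different hosts.

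The values past 1.5-fold in this list ran from -2.77 for miR-488-5p to 0.89 for miR-326-3p. The first had 51 control and 2 knockdown reads (interval -6.04 to -1.03). Its knockdown reads lie below the floor of 3 reads, so that its fold and its place at this end are not exact. miR-326-3p had 44 and 25 reads (0.13 to 1.64; adjusted p = 0.047, exact binomial test). Names of this list thus had values on both sides. Opposite arms in TPM as in Mir140 were also seen in miR-335 from an intron of *Mest*, whose 3p arm fell by 0.66 and whose 5p arm rose by 0.63, a contrast of direction that likewise ended with a common total.

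Markers of the cell types that the cultures could hold moved between the 2 libraries as well. Of the 10 fibroblast miRNAs (miR-143, miR-145a, miR-199a, miR-199b and miR-214), all above 1.5 TPM, 0 were reduced and 1 was raised over 1.5-fold, beside 41.5% and 15.8% of the 607 miRNAs. That one was miR-199b-5p, whose log2 fold change was 0.93 (0.66 to 1.20; 319 and 185 reads). By the exact binomial test 6 were higher and 1 was lower (of the 607, 18.9% and 38.7%), and the median was 0.14, beside -0.37. The lower one, miR-214-3p, was picked out after its value of -0.42 was seen. Their summed level was 27675 TPM in the control and 32318 TPM in the knockdown, and miR-143-3p led with 18362 and 20113 TPM. In raw reads, which a common total compares, each of the 10 was lower in the knockdown.

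The germ and stem cell list consisted mainly of the miR-290, miR-302 and miR-183 clusters, and its values do not stand for other miRNAs of these cells. Of 15 names, 12 had 22 mature miRNAs in the tables, and those of miR-302a, miR-302c and miR-202 were not analysed here. Of the 20 above 1.5 TPM, 13 were reduced and 1 was raised over 1.5-fold (of the 607, 41.5% and 15.8%), and the median was -0.69, beside -0.37. By the exact binomial test 15 were lower and 1 was higher (of the 607, 38.7% and 18.9%). Their sum was 164322 TPM in the control and 128633 TPM in the knockdown. It was led by miR-182-5p, at 142065 and 103395 TPM (log2 -0.46). The values past 1.5-fold ran from -2.97 for miR-290a-3p to 0.89 for miR-34c-5p. The first had 33 control reads and 1 knockdown read (interval -8.67 to -0.75). Its knockdown count lies below the floor of 3 reads, so that its fold and its place at this end are not exact. miR-34c-5p had 9034 and 16687 TPM, from 95024 and 53304 reads. miR-302b-3p and miR-302d-3p had 1 and 2 control reads and 0 knockdown reads, which allows up to 0.939 TPM.

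Blood cell miRNAs were scarce, with a sum of 176 TPM in the control and 35.1 TPM in the knockdown over 6 mature miRNAs of miR-142a, miR-223, miR-150 and miR-451a, none of them at 0. Of the 3 above 1.5 TPM, 2 were reduced over 1.5-fold (of the 607, 41.5%), miR-142a-5p with 158 and 28.8 TPM (log2 -2.45, -2.78 to -2.15) and miR-142a-3p with 121 and 5 reads (-2.80, -4.53 to -1.62). The part of fibroblast, germ or blood cells in the levels and arm shares of Mir151, Mir140, Mir28a and Mir186 was not tested.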

How the data were processed

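The authors removed rRNA reads and adaptors, mapped the small RNA reads of each library without base mismatch to miRBase mature miRNAs, and deposited a read count and a TPM value for each miRNA. How reads shared by several miRNAs were assigned is not given in the sources used here. Dividing deposited counts by deposited TPM gave 1 total per library. RNA-seq and CLIP-seq data of the series were not used here.

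The read counts entered a two-sided exact binomial test given these totals, with Benjamini-Hochberg adjustment over 1096 miRNAs and a threshold of 0.05. Arm shares and pairs of loci were compared by two-sided Fisher's exact tests, with Benjamini-Hochberg adjustment over 206 hairpin names and 6 pairs. Intervals are 95% (Clopper-Pearson for fold changes, Wilson for shares, Newcombe for differences of shares, normal on the log scale for ratios of loci). Alternatives were other minimums, thresholds, pseudocounts and scalings. Python 3.11.15, scipy 1.17.1, pandas 2.3.3, R 4.3.3 and edgeR 4.0.16 (TMM factors only) were used.

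The members and lists were chosen with earlier results of these data known. Named miRNAs are the members, miRNAs of the tables with a member's seed, the 2 nearest in level to each leading arm (the arm with more control reads), and, from each list, the most abundant and those past 1.5-fold with the largest and smallest log2 fold change. Marker names at 0 or outside the tables, and other names given as chosen after their values were seen, are exceptions.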

Additional observations from a re-analysis of the deposited data

How the results depend on the processing

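No paired analysis was possible because there is 1 library per group, and no library could be left out. The members reduced over 1.5-fold stayed at 0 without a minimum, with a minimum of 10 TPM, with a 2-fold threshold, with a pseudocount of 1 TPM and with scaling by miRNA reads, the median ratio or TMM, and came to 8 with a common total. With a common total 561 of the 581 miRNAs above the minimum were reduced as well. The members raised over 1.5-fold came to 3 with the median ratio and to 3 with TMM, and to 0 with the other settings. Among all miRNAs above the minimum, 144 of 607 were raised with the median ratio and 145 of 616 with TMM. A common total gave 8 members lower and 0 higher by the exact binomial test, against 3 and 3, and a median log2 fold change of -1.61. Over the 1096 miRNAs, 607 were lower and 10 higher with this total, and the median of those above the minimum was -2.07. Scaling by miRNA reads gave 3 and 3, and the median ratio and TMM gave 3 lower and 4 higher, the added member being miR-28a-5p.

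With a common total the log2 fold changes that turned negative were those of miR-140-5p (-1.21), miR-28a-3p (-1.22), miR-186-3p (-1.45), miR-186-5p (-1.25), Mir28a (-1.47) and Mir186 (-1.25). miR-28a-5p, not separated from counting error at -0.04, came to 0.025 with scaling by miRNA reads, 0.21 with the median ratio and 0.18 with TMM, and was higher by the exact binomial test with the last 2 (adjusted p = 0.0034 and 0.018, against 0.877 with the deposited TPM, 0.998 with miRNA reads and 1.5e-203, as lower, with a common total). These shifts follow from the totals alone. The count of loci with a changed arm share was 2 at minimums of 5, 20 and 100 reads, that over all names was 53, 56 and 59, and 6 pairs of loci differed with the leading arms of the control alone. With miR-28a-3p in place of miR-28a-5p, chosen after seeing the data, 5 pairs differed, and Mir28a against Mir186 did not pass (adjusted p = 0.621, Fisher's exact test).

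Which scaling is right cannot be told from these tables, since nothing in them measures RNA per cell. The depth limits miR-186-3p most, at 7 reads in the knockdown. With 1 library per group, the spread between cultures is unknown, and the exact tests can pass for differences that another culture would not show. Reads are not independent molecules.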
